A study of Mus musculus with 6 samples.

Results

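The MYC, MAX and MXD network was examined in mouse embryonic stem cells (ESCs) and in the epiblast-like cells (EpiLCs) made from them. Its members were the 10 genes Myc, Mycn, Mycl, Max, Mxd1, Mxd3, Mxd4, Mxi1, Mga and Mnt, chosen by name from the 24736 genes of the deposited expression table, and all 10 had enough reads to be tested. Both groups came from the XY HM1 TetON line, which the study used as its wild type and which carries the rtTA gene at the Rosa26 locus, so the data describe 1 cell line. ESCs (time 0 h, 3 biological replicates) were grown on inactivated mouse embryonic fibroblasts with 10% serum and 1000 U/ml LIF. EpiLCs (48 h by the labels and the study's account of its results, although its culture methods give a longer time; 3 biological replicates) were grown without serum, LIF or feeders in N2B27 medium that held bFGF at 10 ng/ml and LGK974 at 5 µM, a drug that blocks WNT secretion. Serum, LIF, feeders, FGF, the WNT secretion block and time therefore changed together and cannot be told apart.

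MYC proteins are basic helix-loop-helix leucine zipper transcription factors that bind DNA only as dimers with MAX. MYC-MAX dimers bind the E-box CACGTG and recruit acetyltransferases and elongation factors, and they raise the expression of genes for ribosome production, nucleotide synthesis and cell division. The MXD proteins (MXI1 belongs to that family) and MNT also dimerize with MAX at E-boxes, but recruit SIN3 and histone deacetylases and repress. MGA is a much larger MAX partner that carries a T-box as well, and together with MAX forms part of the Polycomb complex PRC1.6, which silences germline genes. In ESCs, Myc is a known target of LIF-STAT3 and WNT signalling, and MYC activity is known to help maintain self-renewal.

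Because the network binds CACGTG, the promoters of its own genes were searched for it, from 250 bases before to 50 bases after the start site (RefSeq, GRCm38.p6, the assembly that mm10 names). The promoter table matched 9 of the 10 members, all but Myc, with 11 start sites. CACGTG, which reads the same on both strands, occurred in the promoters of Max, Mxd4 and Mnt and in 7.15% of all 32851 promoters of the table and 9.74% of the 14264 promoters of genes tested. CACGCG, a variant searched on both strands, occurred in the promoters of Mycl and Mga and in 9.27% of all promoters and 16.7% of those of genes tested. A match describes these letters and is not a shown binding site. The E-box windows are given in the direction of transcription with the E-box in capitals, at chr12:76962234-76962263 (minus strand) for Max, chr11:74830789-74830818 (plus strand) for Mnt and chr5:34187912-34187941 (minus strand) for Mxd4.
Max: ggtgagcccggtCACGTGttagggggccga
Mnt: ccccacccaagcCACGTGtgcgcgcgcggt
Mxd4: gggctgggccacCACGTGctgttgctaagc
The Max E-box began 3 bases before the start site, that of Mnt 123 bases and that of Mxd4 219 bases before it. The start sites of Max and Mnt used here lay inside the annotated span of these genes. Max and Mnt were lower in EpiLCs, whereas Mxd4 was not called.

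Totals of expected counts lay between 16967741 and 35096210 per library. The labels were checked against marker genes. All 8 naive pluripotency markers were lower in EpiLCs and all 6 formative markers higher, with Nanog at a mean of 324 TPM (ESCs) against 12.0 TPM (EpiLCs). TPM is a read count scaled for transcript length and library size, so that levels of different genes can be set side by side. Where 3 values follow each other for a state, they are those of replicates 1, 2 and 3 in that order. The ESC libraries stood apart from each other in fibroblast markers. The summed TPM of 16 such genes was 2011, 4296 and 1010 in the ESC libraries, with 422, 423 and 305 in the EpiLC libraries, and 15 of the 16 had the order of replicate 2 over 1 over 3 in ESCs. Fn1 and Vim led the sum, whereas Lum and Dcn, markers of mature fibroblasts, did not exceed 0.180 and 1.63 TPM in any library. Over the whole list, 15 genes could be tested, with a median log2 fold change of -2.92. Of them, 9 were lower in EpiLCs and 0 higher by the test given below, by which 22.8% of all genes were lower. Before differentiation, the study separated ESCs from feeders by letting the feeders adhere to plastic, and whether the ESC RNA was taken after that step is not given in the sources used here. In bulk RNA, fewer cells of a type and less RNA per cell cannot be told apart.

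No member was higher in EpiLCs and 5 were lower, at an adjusted p of at most 0.05 (edgeR's quasi-likelihood test, Benjamini-Hochberg adjustment over the 14468 genes tested). They were Mxi1, Mnt, Mga, Mycl and Max. Of all genes tested, 22.8% were lower and 22.6% higher by the same rule. The same 5 members were the ones whose TPM did not overlap between the groups, which held in this direction for 25.6% of all genes and in either direction for 59.5%. The log2 fold changes of the 10 members ran from -1.16 (Mxi1) to -0.10 (Mycn) with a median of -0.46, beside a median of 0.00 over all genes tested. The 2 most expressed MYC genes, Mycn and Myc, were among those not called. Without EpiLC replicate 2, 3 members were called, as Mycl and Max missed the threshold. Without ESC replicate 2, 7 were called, with Mycn as lower and Mxd4 as higher in addition.

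**Figure D1:**
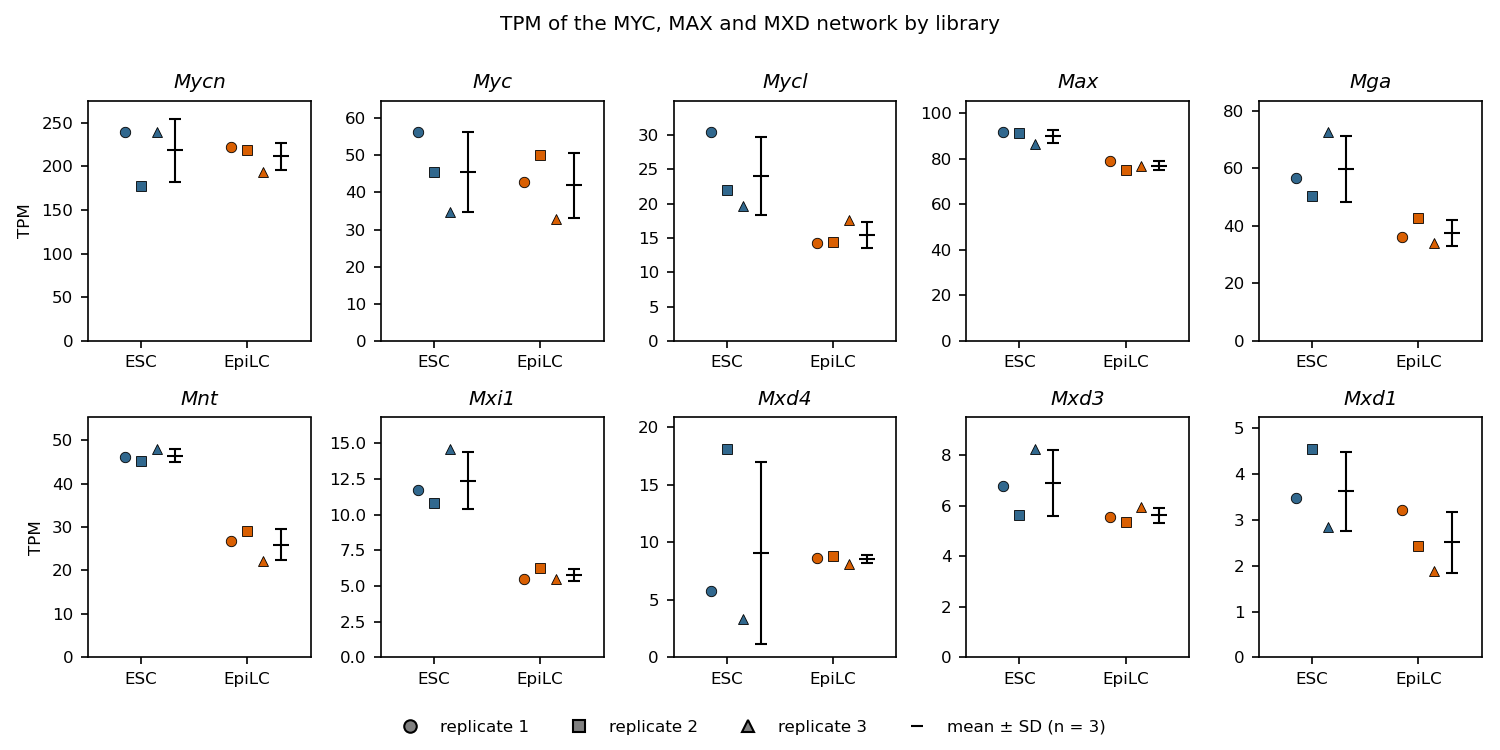
TPM of each of the 10 genes (vertical axes, each from 0) in the 3 ESC (blue) and 3 EpiLC (orange) libraries. Symbols mark the replicates and the black bar is the mean ± SD. Mycl, Max, Mga, Mnt and Mxi1 are lower in every EpiLC library than in every ESC library, Mycn and Myc overlap, and Mxd4 stands at 18.1 TPM in ESC replicate 2 alone.

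Mycn was the most abundant transcript of the network in both states. It lies on chromosome 12 (12936093 to 12941836, minus strand) and encodes N-MYC, the MYC paralog best known from neural progenitors and neuroblastoma. Its level was 239, 177 and 239 TPM in ESCs, against 222, 219 and 194 TPM in EpiLCs. The groups overlapped, as ESC replicate 2 was the lowest of all 6 libraries. The log2 fold change was -0.10 (standard error, SE, 0.13; adjusted p = 0.555 by edgeR), with a 95% interval from -0.40 to 0.20. Without ESC replicate 2, the log2 fold change was -0.23 and was called (adjusted p = 0.0301), and that library is the one with the highest fibroblast markers. The part of these markers in the result was not tested.

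Myc, the founding member of the family and an immediate early gene in many cells, lies on chromosome 15 (61985341 to 61990361, plus strand). It was at 56.2, 45.5 and 34.6 TPM in ESCs, against 42.9, 50.2 and 32.8 TPM in EpiLCs. The spread within each state was larger than the difference between their means (45.5 ± 10.8 and 42.0 ± 8.78 TPM, SD, n = 3 each). The log2 fold change was -0.17 (SE 0.20, adjusted p = 0.535 by edgeR), and its 95% interval from -0.65 to 0.32 leaves room for a change of either sign. Myc was not called in any of the 14 alternative fits, with log2 fold changes from -0.32 to 0.00.

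Mycl (chromosome 4, 122995588 to 123002490, plus strand) encodes L-MYC, the third paralog and the weakest transforming one. It stood at 30.4, 22.0 and 19.6 TPM in ESCs, against 14.2, 14.4 and 17.6 TPM in EpiLCs. Every EpiLC library was below every ESC library, although EpiLC replicate 3 and ESC replicate 3 were close. The log2 fold change was -0.69 (SE 0.18, adjusted p = 0.0190 by edgeR), so that Mycl fell by 38.0%. The call was lost without EpiLC replicate 1 (adjusted p = 0.0761) and without EpiLC replicate 2 (adjusted p = 0.0719), with a log2 fold change of -0.63 in both. In ESCs, Mycl, Myc and Max had the order of replicate 1 over 2 over 3, as did 1890 of the 14468 genes tested. The summed TPM of 6 primitive streak genes (500, 194 and 161), of 7 primitive endoderm genes (72.9, 48.9 and 39.5) and of 6 genes of 2-cell-like cells (16.4, 10.0 and 4.75) had it too. In EpiLCs the primitive streak sum was 7.84, 7.90 and 49.8 TPM, highest in replicate 3 as was Mycl. Myc, however, was lowest in that replicate (32.8 TPM), and Max was in the middle (76.9 TPM). The part of such cells in these values was not tested.

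The 3 MYC genes together amounted to 287 ± 40.8 TPM (ESCs) against 269 ± 21.6 TPM (EpiLCs; SD, n = 3 each), and these sums overlapped. Mycn made up 73.4%, 72.3% and 81.5% of the sum across ESC libraries and 79.5%, 77.2% and 79.4% across EpiLC libraries. Myc held 15.9% ± 3.62 in ESCs and 15.5% ± 2.15 in EpiLCs (SD, n = 3 each). The share of Mycl was 9.35%, 9.00% and 6.68% in ESCs and 5.09%, 5.07% and 7.20% in EpiLCs, with EpiLC replicate 3 above ESC replicate 3. Hence the make-up of the MYC pool by transcripts was led by Mycn throughout, at 3.88 to 6.90 times the TPM of Myc in ESC libraries and 4.35 to 5.91 times in EpiLC libraries.

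Max encodes the shared partner (chromosome 12, 76937269 to 76962323, minus strand). Its level varied little among replicates, at 91.7, 91.6 and 86.7 TPM in ESCs, against 79.3, 75.1 and 76.9 TPM in EpiLCs. All EpiLC libraries were below all ESC libraries. The difference was small, with a log2 fold change of -0.27 (SE 0.0604, adjusted p = 0.0104 by edgeR), so that Max fell by 17.3%. Without EpiLC replicate 2 it was -0.24 and just missed the threshold (adjusted p = 0.0532). Summed MYC family TPM was 3.20 ± 0.469 times that of Max in ESCs and 3.49 ± 0.302 times in EpiLCs (SD, n = 3 each), ranges that overlapped.

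Among the MAX partners that repress, Mxi1 and Mnt fell most. Mxi1 (chromosome 19, 53310128 to 53373293, plus strand) encodes an antagonist of MYC that is also induced by hypoxia in many cells. It was at 11.7, 10.8 and 14.6 TPM in ESCs, against 5.51, 6.26 and 5.51 TPM in EpiLCs. The highest EpiLC library was thus well below the lowest ESC library. Its log2 fold change of -1.16 (SE 0.14, adjusted p = 9.34e-04 by edgeR) was the largest of the network, and 11.5% of all genes tested had a lower one. The call held in all 14 alternative fits (log2 fold changes from -1.25 to -0.98).

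Mnt (chromosome 11, 74830806 to 74845725, plus strand) encodes a broadly expressed MAX partner, known as the antagonist that is present in proliferating as well as resting cells. It was the most abundant gene of the MXD and MNT group. It stood at 46.0, 45.2 and 48.0 TPM in ESCs, against 26.7, 29.0 and 22.1 TPM in EpiLCs. The ESC libraries lay close together and none overlapped with EpiLCs. The log2 fold change was -0.89 (SE 0.10, adjusted p = 7.08e-04 by edgeR), so that Mnt fell by 46.1%, and it was called in all 14 alternative fits.

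The 3 remaining MXD genes were low and were not called. Mxd1 (chromosome 6, 86647044 to 86669234, minus strand), which encodes a repressor known for rising when cells stop dividing and differentiate, was at 3.48, 4.55 and 2.85 TPM in ESCs, against 3.22, 2.43 and 1.89 TPM in EpiLCs. Its log2 fold change was -0.57 (95% interval from -1.18 to 0.03, adjusted p = 0.108 by edgeR). Mxd3 (chromosome 13, 55325170 to 55329900, minus strand), which unlike its relatives is known to be expressed in dividing cells during S phase, was at 6.78, 5.64 and 8.24 TPM in ESCs and at 5.53, 5.36 and 5.93 TPM in EpiLCs. Its log2 fold change was -0.35 (95% interval from -0.84 to 0.14, adjusted p = 0.199 by edgeR), and -0.19 without ESC replicate 3. For both genes the groups overlapped.

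Mxd4 (chromosome 5, 34176580 to 34187710, minus strand) encodes a MAX partner linked to withdrawal from the cell cycle, and 1 ESC library decided its value. It was at 5.80, 18.1 and 3.35 TPM in ESCs, against 8.61, 8.80 and 8.11 TPM in EpiLCs. The EpiLC libraries agreed closely, and lay above ESC replicates 1 and 3 and below ESC replicate 2. Over all libraries the log2 fold change was -0.12 (95% interval from -1.45 to 1.21, adjusted p = 0.875 by edgeR). Without ESC replicate 2 it was 0.85 and was called as higher in EpiLCs (adjusted p = 0.0356). Mxd4 and Mxd1 were the only members with the ESC order of the fibroblast markers, replicate 2 over 1 over 3, an order that 3755 of the 14468 genes tested shared. The part of fibroblast RNA in these values was not tested.

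**Figure D2:**
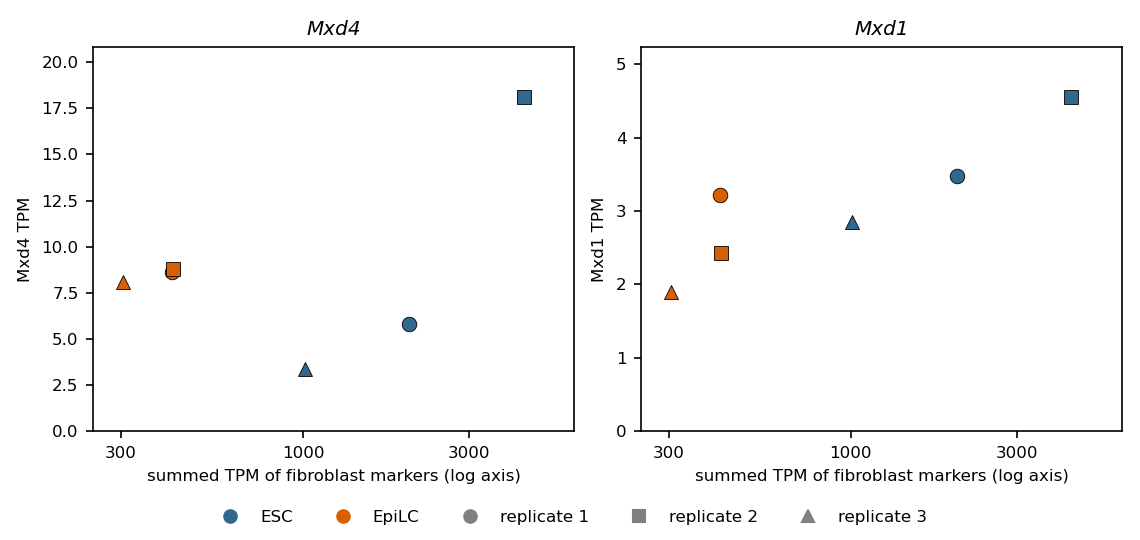
TPM of Mxd4 (left) and Mxd1 (right) against the summed TPM of 16 fibroblast markers (horizontal log axis), 1 point per library, ESCs in blue and EpiLCs in orange. ESC replicate 2, with a marker sum of 4296 TPM, has the highest level of both genes, and the 3 EpiLC libraries have Mxd4 between 8.11 and 8.80 TPM at marker sums from 305 to 423 TPM.

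Summed over Mxd1, Mxd3, Mxd4, Mxi1 and Mnt, the transcripts of repressive partners amounted to 73.8, 84.3 and 77.1 TPM in ESCs, against 49.5, 51.9 and 43.6 TPM in EpiLCs. Mga, at 50.3 to 72.5 TPM in ESC libraries and 33.9 to 42.7 TPM in EpiLC libraries, was left out of this sum. Mnt held 59.4% ± 5.03 of the sum in ESCs and 53.5% ± 2.60 in EpiLCs (SD, n = 3 each). The ratio of summed MYC family TPM to this sum was 4.41, 2.90 and 3.80 across ESC libraries, against 5.63, 5.46 and 5.60 across EpiLC libraries. MYC genes thus outnumbered the MXD and MNT genes by transcripts in every library, and the ratio was higher in each EpiLC library than in each ESC library. Without scaling for transcript length, the mean ratios were 2.40 in ESCs and 3.94 in EpiLCs. These are transcripts, and MYC proteins in particular are known for fast turnover, so the ratio is not one of proteins.

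**Figure D3:**
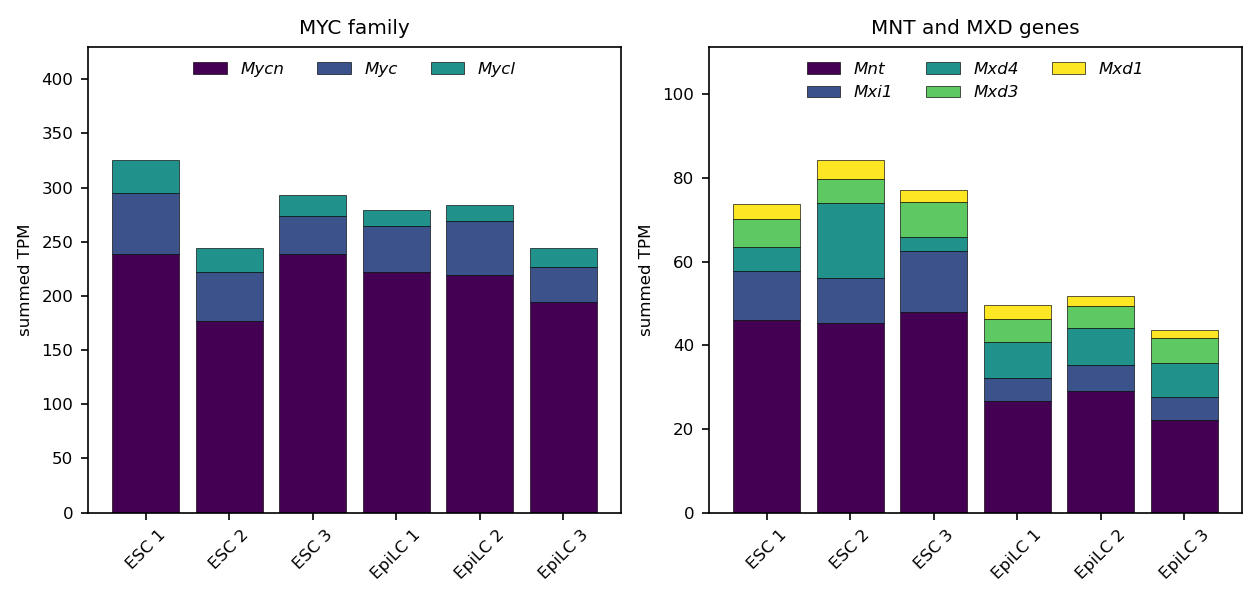
Summed TPM (vertical axes, from 0) of the MYC family (left) and of Mnt and the MXD genes (right) in each library, with each gene's part in its own colour. Mycn fills 72.3% to 81.5% of the left bars, and the right bars reach 73.8 to 84.3 TPM in ESCs and 43.6 to 51.9 TPM in EpiLCs.

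Mga (chromosome 2, 119872503 to 119970129, plus strand) was at 56.5, 50.3 and 72.5 TPM in ESCs, against 36.1, 42.7 and 33.9 TPM in EpiLCs. The groups did not overlap. It fell by 39.4%, a log2 difference of -0.72 (SE 0.15, adjusted p = 0.00837 by edgeR), and was called in all 14 alternative fits, with log2 fold changes from -0.84 to -0.54.

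**Figure D4:**
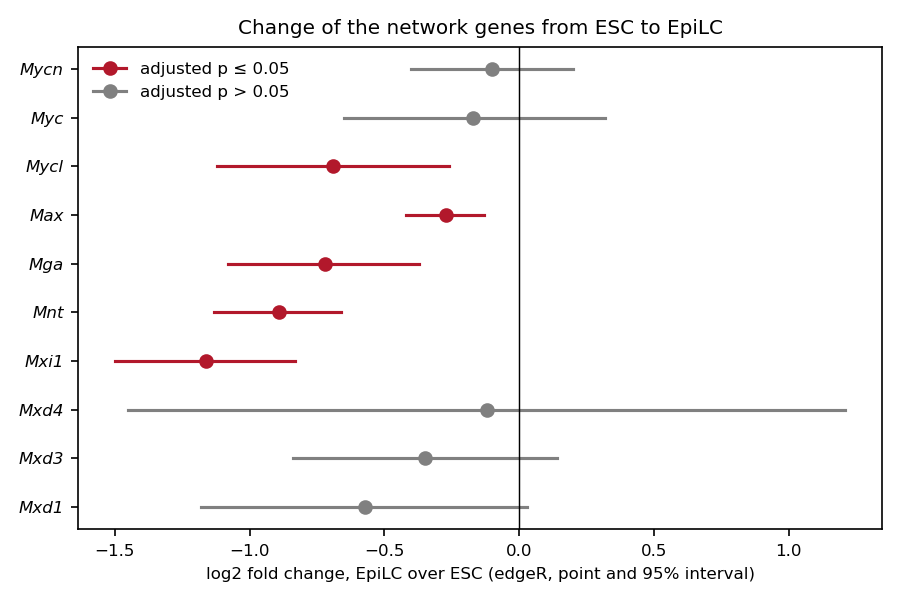
Log2 fold change of each gene from ESC to EpiLC (horizontal axis, points) with its 95% interval (lines), red where the adjusted p is at most 0.05. Mxi1 lies lowest at -1.16, the interval of Max is the narrowest and that of Mxd4 the widest, from -1.45 to 1.21.

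By mean TPM in ESCs, the order ran Mycn (218), Max (90.0), Mga (59.8), Mnt (46.4), Myc (45.5), Mycl (24.0), Mxi1 (12.4), Mxd4 (9.08), Mxd3 (6.89) and Mxd1 (3.63). The ranges of the neighbours Mnt and Myc, Mxi1 and Mxd4, and Mxd4 and Mxd3 overlapped. In EpiLCs Myc (42.0) stood above Mga (37.6) and Mnt (25.9), and Mxd4 (8.51) above Mxi1 (5.76). Myc and Mga, and Mxi1 and Mxd3, were the neighbours whose ranges overlapped there. Mycn and Max kept the top places in both states.

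The genes with levels most like those of the MYC genes over the 6 libraries were sought among 9196 other genes with mean CPM not under 10, by Pearson's r of log2 CPM. For Mycn they were Stil (0.988), Lmbrd2 (0.982) and Ankrd26 (0.968). For Myc they were Bbx, Arel1 (0.972 each) and Nfkb2 (0.958). For Mycl they were Pnpt1 (0.997), Tasp1 (0.995) and Cdkn2aipnl (0.990). With 6 libraries in 2 groups these values are descriptions, and 52 genes had an r of at least 0.95 with Mycl.

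Genes of the wider network were counted from lists written by hand. Of 5 genes of the parallel MLX arm, 3 were lower in EpiLCs and none higher, with a median log2 fold change of -0.22. The share called was 60.0%, beside 45.4% of all genes tested. Mlx, the MAX-like hub of that arm, was at 46.3 ± 0.973 TPM (ESCs) against 41.1 ± 0.912 TPM (EpiLCs; SD, n = 3 each), a log2 fold change of -0.22 (adjusted p = 0.0371 by edgeR). Txnip and Arrdc4, arrestin-family genes that MondoA-MLX dimers activate when glucose is ample, fell by 0.72 and 0.74 on the log2 scale (adjusted p = 0.00137 and 0.0389). Mlxip, which encodes MondoA, had a log2 fold change of 0.01 and was not called (adjusted p = 0.937). Mlxipl, which encodes its glucose-responsive paralog ChREBP, was at 1.66, 0.690 and 3.90 TPM in ESCs, against 4.94, 5.37 and 4.92 TPM in EpiLCs. The groups did not overlap, but it was not called (log2 fold change 1.20, 95% interval from -0.05 to 2.44, adjusted p = 0.103 by edgeR). With DESeq2, with both limma settings and without ESC replicate 3, 1 gene of the arm was called as higher. The count of 3 lower genes was not stable. It was 1 without ESC replicate 3, EpiLC replicate 1 or EpiLC replicate 2. It was 2 without ESC replicate 1, ESC replicate 2 or EpiLC replicate 3, with the replicate block, with upper-quartile normalization, with no filter and with limma on log2(TPM + 0.1).

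Of 16 coactivator genes used by MYC, 4 were lower and 3 higher, with a median log2 fold change of -0.01. The calls came to 43.8%, near the 45.4% of all genes tested. Among those lower were Ep400 (-0.67) and Trrap (-0.41), the ATPase and the scaffold of the TIP60 acetyltransferase complex, and Wdr5 (-0.36), a chromatin adaptor that MYC binds. Those higher were Kat5 (0.28), the acetyltransferase TIP60 itself, Paf1 (0.31), an elongation factor, and Bptf (0.23), a remodelling subunit. All are log2 fold changes. Without EpiLC replicate 1, 3 were lower and 0 higher, so that Kat5, Paf1 and Bptf all lost their call, and 1 was higher without ESC replicate 1 or without EpiLC replicate 2. Of 16 genes for SIN3 and NCOR corepressors, which the MXD and MNT proteins recruit, 6 were higher and 4 lower (median 0.06). This is 62.5% called, beside 45.4% of all genes tested. The balance did not hold, with 4 higher and 4 lower after RLE normalization, 5 and 6 without ESC replicate 2, and 3 and 4 without ESC replicate 1 or without any one of the EpiLC libraries. Hdac1 (0.18) and Hdac2 (0.31) were among the higher, of which the highest reached 0.50, and Rbbp7 (-0.66) and Sap30 (-0.59) were the lowest. Sin3a, the scaffold, was at 103 ± 11.1 TPM (ESCs) against 90.5 ± 1.93 TPM (EpiLCs; SD, n = 3 each) and was not called (adjusted p = 0.0571 by edgeR).

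Of the 11 PRC1.6 partners of MGA, 3 were called, which is 27.3%, beside 45.4% of all genes tested. The median log2 fold change of the 11 genes was 0.03. E2f6 (0.60) and Tfdp1 (0.36), which form a DNA-binding dimer of the complex, were higher, and L3mbtl2 (-0.45), its methyl-lysine reader, was lower. Pcgf6, which defines the complex, stood at 75.3 ± 3.70 TPM (ESCs) against 79.8 ± 1.27 TPM (EpiLCs; SD, n = 3 each). Of 21 germline genes that the complex is known to silence, 19 could be tested, and 4 were higher and 5 lower (median 0.13). Called genes made up 47.4%, near the 45.4% of all genes tested. The median changed sign to -0.27 with no filter, to -0.28 with at least 10 counts in every sample and to -0.11 without ESC replicate 2. The lowest were Smc1b (-3.26) and Hormad1 (-3.11), of meiotic chromosome axes. The highest were Tdrd1 (2.56), of the piRNA pathway, and Taf7l (1.52), a germ cell transcription factor. Tdrd1 was at 1.90, 0.940 and 1.20 TPM in ESCs, against 8.01, 9.55 and 7.18 TPM in EpiLCs, so both groups stayed far below the level of Pcgf6. Not every gene of the list was as low. Sycp3 was at 143, 70.9 and 185 TPM in ESCs, against 68.4, 73.1 and 71.2 TPM in EpiLCs (log2 fold change -0.96, adjusted p = 0.0415 by edgeR).

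Genes whose products add or remove marks on MYC proteins, or degrade them, counted 4 higher and 3 lower of 19, with a median log2 fold change of 0.05. That makes 36.8% called, beside 45.4% of all genes tested. The largest changes were those of Pim1 and Pim3, kinase genes that STAT3 is known to induce and whose products stabilise MYC. Pim1 was at 87.2, 72.8 and 104 TPM in ESCs, against 10.9, 13.2 and 12.0 TPM in EpiLCs. The log2 fold changes were -2.92 for Pim1 (SE 0.16, adjusted p = 7.56e-05 by edgeR) and -1.60 for Pim3 (SE 0.11, adjusted p = 1.28e-04). Huwe1, for a ubiquitin ligase that acts on MYC, was lower (-0.62), and Trim32 (0.55) and Stub1 (0.30), for other ligases, were higher. The ligase gene Fbxw7 (-0.04, adjusted p = 0.720) and the kinase gene Gsk3b (0.23, adjusted p = 0.0726), which together mark and degrade MYC, were not called. Upper-quartile normalization, where 52.9% of all genes called were higher, gave 7 higher and 3 lower in this list. Without EpiLC replicate 1, 3 of its genes were called in all.

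MYC target genes, mostly for ribosome assembly, nucleotide synthesis and the cell cycle, had a median log2 fold change of -0.03 over 72 genes. Of these, 8 were higher and 13 lower, which makes 29.2% called in either direction, beside 45.4% of all genes tested. With limma on log2(TPM + 1), 17 were higher and 12 lower, and the cause of this turn was not tested. In that fit 57.4% of all genes called were higher, against 49.7% in the main fit. The counts of targets were 10 higher and 11 lower after upper-quartile normalization, where 52.9% of all genes called were higher. Without EpiLC replicate 1, 10 targets were called. Among the higher genes were Mat2a (0.70), for the enzyme that makes S-adenosylmethionine, Slc29a2 (0.55), a nucleoside transporter gene, and Plk4 (0.44), of centriole duplication. Among the lower genes were Ccnd2 (-2.49), for cyclin D2, Map3k6 (-1.16), a stress kinase gene, and Hk2 (-0.62), for hexokinase. Ccnd2 was at 55.5, 128 and 22.1 TPM in ESCs, which is the order of the fibroblast markers. In EpiLCs it was at 8.66, 17.2 and 12.1 TPM, below every ESC library. The part of fibroblast RNA in this difference was not tested.

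Several long-standing MYC targets were not called. Odc1, for the first enzyme of polyamine synthesis, was at 731 ± 43.3 TPM (ESCs) against 857 ± 51.1 TPM (EpiLCs; SD, n = 3 each), with a log2 fold change of 0.18 (adjusted p = 0.0702 by edgeR). Ncl, for nucleolin, was at 919 ± 39.7 and 971 ± 51.6 TPM (SD, n = 3 each), with a log2 fold change of 0.03 (adjusted p = 0.753). Cad, for an enzyme of pyrimidine synthesis, had a log2 fold change of 0.11 (adjusted p = 0.225). These 3 genes were picked after their values were seen. The repressive side of MYC was read from 9 genes, Zbtb17 (MIZ1) and genes that MYC holds down with it. Of these, 3 were lower and none higher (median -0.39), which makes 33.3% called, beside 45.4% of all genes tested. The 3 lower genes were the stress genes Gadd45b (-2.92) and Gadd45a (-0.75) and Ndrg1 (-0.95), a differentiation gene. Zbtb17 was at 13.0 ± 0.562 TPM (ESCs) against 13.0 ± 0.538 TPM (EpiLCs; SD, n = 3 each). The cell cycle inhibitor gene Cdkn1a was at 106, 203 and 72.3 TPM in ESCs, against 84.1, 84.8 and 70.5 TPM in EpiLCs, and was not called (adjusted p = 0.123). Zbtb17, Cdkn1a, Cdkn2b and Gadd45b had the ESC order of the fibroblast markers, whose part in these values was not tested. Without ESC replicate 3, 5 genes of this list were called, 1 of them as higher, and the median was -0.79. It was -0.10 with the replicate block and -0.04 with both limma settings.

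**Figure D5:**
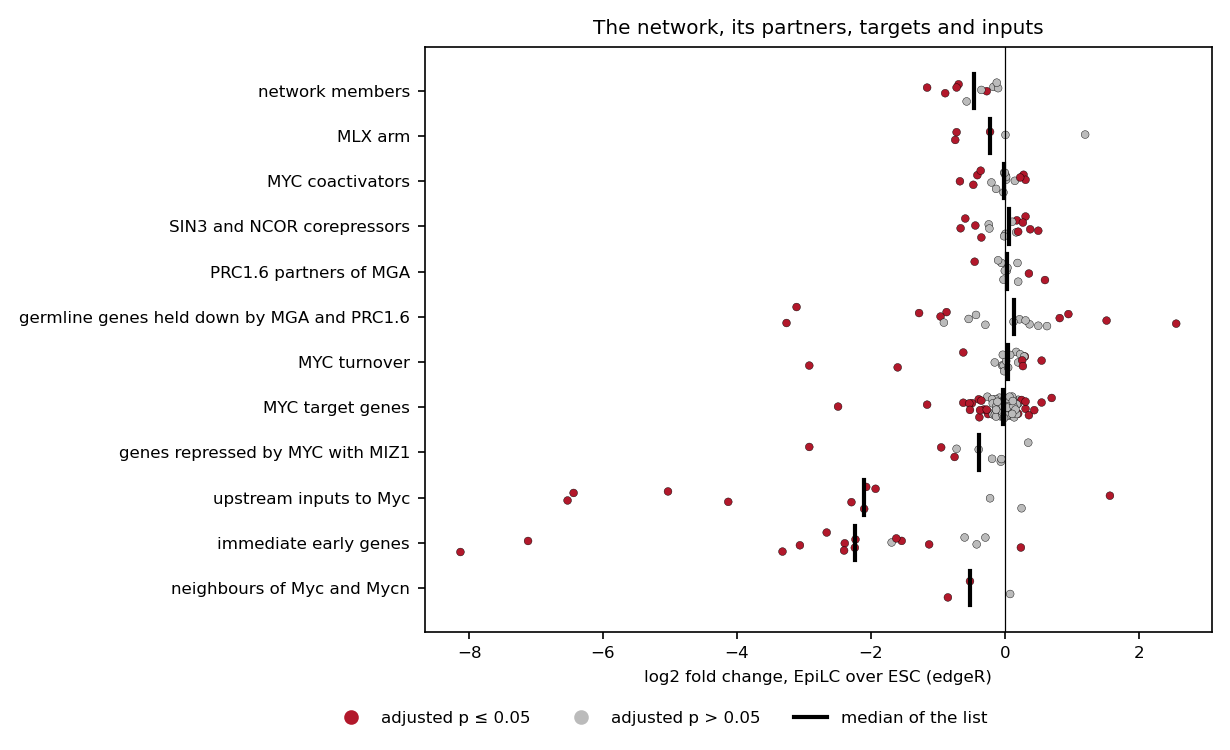
Log2 fold change from ESC to EpiLC (horizontal axis) of each tested gene, 1 row per list, red where the adjusted p is at most 0.05, with the median of each list as a black bar. The median of the 72 MYC target genes lies at -0.03, and those of the upstream inputs and the immediate early genes at -2.10 and -2.23.

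A list of LIF and WNT pathway genes and pluripotency factors, drawn up as upstream of Myc, also holds the feedback inhibitor genes Socs3, Axin2 and Nkd1. Of its 11 genes, 8 were lower in EpiLCs and 1 was higher, with a median log2 fold change of -2.10. The calls make up 81.8% of the list, beside 45.4% of all genes tested. The LIF pathway genes Lifr (-2.10), Il6st (-2.07), Stat3 (-2.29) and Socs3 (-4.13) were all lower. Socs3 was at 42.3, 32.7 and 50.9 TPM in ESCs, against 3.07, 2.27 and 2.13 TPM in EpiLCs. Of the WNT pathway genes, Axin2 (-1.93) and Sp5 (-5.03) were lower, Lef1 (1.57) was higher, and Tcf7 and Nkd1 were not called. Axin2 and Sp5, and also Lef1 although it was higher in EpiLCs, had the ESC order of the primitive streak sum. Like that sum, these genes were highest in replicate 3 among EpiLCs. The part of streak-like cells in their values was not tested. Sp5 was at 56.6, 27.4 and 23.6 TPM in ESCs, against 0.0900, 0 and 3.39 TPM in EpiLCs, so that 1 library held nearly all of its EpiLC reads. The pluripotency factor genes Klf4 (-6.53) and Esrrb (-6.44) were the lowest of the list.

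Of 17 immediate early genes, the class to which Myc is often assigned, 12 were lower in EpiLCs and 1, Srf (0.24), was higher. Their median was -2.23, and 76.5% were called, beside 45.4% of all genes tested. No gene of the list was called as higher with the replicate block, without EpiLC replicate 1 or without EpiLC replicate 2. The lowest were Fosb (-8.13), Fos (-7.12) and Egr1 (-3.32). Egr1 was at 430, 295 and 340 TPM in ESCs, against 43.1, 50.3 and 17.4 TPM in EpiLCs. The 95% interval of Myc did not reach below -0.65 on the same log2 scale. Serum was in the ESC medium only, and its part in these values was not tested.

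Of 3 genes beside Myc and Mycn, 2 were lower in EpiLCs, as were 22.8% of all genes tested. Pvt1, the gene of a long noncoding RNA (chromosome 15, 62037986 to 62260215), starts 47.6 kb after the end of Myc. It was at 5.66, 7.06 and 7.73 TPM in ESCs, against 4.51, 3.93 and 3.56 TPM in EpiLCs, without overlap. Its log2 fold change was -0.85 (SE 0.18, adjusted p = 0.00842 by edgeR), beside -0.17 for Myc, which was not called. The difference between the 2 fold changes was not tested. On chromosome 12, Ddx1, a helicase gene 277 kb from Mycn, was at 249 ± 10.6 TPM (ESCs) against 274 ± 7.54 TPM (EpiLCs; SD, n = 3 each) and was not called (log2 fold change 0.08, adjusted p = 0.271). Nbas, 327 kb from Mycn, was lower (-0.52, adjusted p = 0.00164).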

How the data were processed

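RNA was sequenced as single-end, strand-specific reads of 76 nt from 3 ESC and 3 EpiLC libraries. The authors trimmed reads with cutadapt 1.16, used STAR 2.5.2a for alignment to mm10, and took gene values for RefSeq genes from RSEM 1.3.0. The authors deposited expected counts, which are not normalized and divide reads shared between genes, and TPM, which RSEM scales for length and library. As printed in the file, the counts of all 10 members were exact whole numbers in all 6 libraries, and between 4.27% and 4.65% of all genes' values in a library were not. Their counts ranged from 51 to 13760, and 3 counts amounted to between 0.0855 and 0.177 CPM (counting error only).

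Expected counts were rounded, scaled by TMM, kept by filterByExpr and tested with edgeR 4.0.16 (R 4.3.3) without a block, with Benjamini-Hochberg adjustment and a threshold of 0.05. Standard errors were derived from the F statistic. Levels are TPM, fold changes come from counts. With 3 libraries against 3, an exact permutation test cannot go below p = 0.1, so sums, shares and ratios were not tested. Members and lists were chosen with earlier results of these data known, and the lists were written by hand. Text names all members and, per list, up to 3 of the highest and 3 of the lowest called genes, plus genes a member's result turns on. Other genes named were chosen after their values were seen. A gene that this rule names is not reported here. Of 258 list genes, 1 (Cip2a) was matched by an older symbol. Alternatives were DESeq2 1.42.0, other normalizations and filters, the replicate block, leaving out each library, and limma 3.58.1 on log2(TPM + 1) and log2(TPM + 0.1). Fits were tested on simulated data. Promoters and positions come from RefSeq on GRCm38.p6.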

Additional observations from a re-analysis of the deposited data

How the results depend on the processing

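Over the 10 members and 14 alternative fits, 132 of 140 values kept their direction and their side of the threshold. Mxd4 was the only member to change sign, to 0.85 without ESC replicate 2, 0.19 with the replicate block, 0.20 with limma on log2(TPM + 1) and 0.26 on log2(TPM + 0.1). With one replicate left out at a time, the log2 fold change ranged from -0.51 to 0.85 for Mxd4, from -0.23 to -0.01 for Mycn, from -0.81 to -0.50 for Mycl and from -0.29 to -0.24 for Max. In those leave-one-out fits, 4244 to 7181 of all genes were called, 3 to 7 members, 1 to 2 MLX arm genes, 3 to 8 coactivators, 3 to 7 turnover genes, 10 to 24 MYC targets and 2 to 5 genes on the repressive side of MYC. With limma on either TPM scale, 5 PRC1.6 partners were called (4 higher, 1 lower), against 3. The MYC targets called were mostly higher (17 against 12 or 13 lower), not mostly lower. Of all genes called, 57.4% were higher on log2(TPM + 1) and 56.8% on log2(TPM + 0.1), against 49.7% in the main fit. Without scaling for length, Mycl held 10.7% of the MYC family in ESCs and 7.45% in EpiLCs, and the ratio of MYC family to MXD and MNT genes was 2.40 and 3.94. The cause was not tested, other than that TPM divides by length. Deviations from the group means had r = 0.00668, 0.186 and 0.170 between libraries of the same number. Replicates 2 and 3 were each most like their own number, whereas ESC replicate 1 was most like EpiLC replicate 3 (0.0836). These values do not settle whether the numbers pair the samples, and the main fit used no block. With the replicate block, 6085 genes and the same 5 members were called. With 3 libraries a group, the 95% intervals ran from -0.65 to 0.32 for Myc and from -1.45 to 1.21 for Mxd4. Changes within them on the log2 scale, in either direction, could go undetected.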
